A study of Arabidopsis thaliana with 48 samples.

Results

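Transcript levels of 9 abscisic acid receptor genes of Arabidopsis thaliana were examined. They were PYR1 (AT4G17870), PYL1 (AT5G46790), PYL2 (AT2G26040), PYL4 (AT2G38310), PYL5 (AT5G05440), PYL6 (AT2G40330), PYL7 (AT4G01026), PYL8 (AT5G53160) and PYL9 (AT1G01360). The genes were taken by locus identifier from both tables the authors deposited, and they are 9 of the 32824 genes listed there. All 9 passed the filter on low values in every fit, so every member was tested in every comparison.

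Abscisic acid (ABA) is a plant hormone that accumulates when water is short or salt is high. PYR and PYL proteins are its soluble receptors: with ABA in the pocket, the receptor binds and inhibits protein phosphatases 2C of clade A (PP2C), such as ABI1, which otherwise keep SnRK2 protein kinases inactive. Released SnRK2 kinases phosphorylate ABF transcription factors, which act on promoters that hold the ABA-responsive element (ABRE). PYR1, PYL1 and PYL2 form homodimers in the absence of ABA and are called the dimeric sub-family here. PYL4, PYL5 and PYL6 form a second sub-family of mostly monomeric receptors, and PYL7, PYL8 and PYL9 form another one, in which PYL8 is known for its role in roots.

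Whole 6-day-old seedlings of Col-0 (WT) and of 1 T-DNA insertion line of RAP2.3, a group VII ethylene response factor, were compared under 8 treatments. The control (CT) was 21 °C with light of 50 µmol m-2 s-1, excess light (EL) was 700 µmol m-2 s-1 for 1.5 h, heat (HS) was 33 °C for 1.5 h, and salt (S) was 50 mM NaCl in the medium on which the seedlings grew. Combined treatments paired salt with light (S+EL) or heat (S+HS), light with heat (EL+HS), or joined all 3 (S+EL+HS). The line went through the same 8 treatments in the same Col-0 background. Its genotype label reads RAP2.3, and its libraries are called rap2.3-labelled or rap2.3 here. Each of the 16 groups had 3 biological replicates, each a pool of seedlings, which gave 48 libraries, 24 per genotype. Values were FPKM, which scale fragments by transcript length and library size, so levels of different genes are compared per length and how many reads stand behind a value is not known. In tissue of whole seedlings, fewer cells of a type and less RNA per cell cannot be told apart.

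The FPKM sum of a library lay between 765860 and 822875, and no 2 libraries were identical. The RAP2.3 transcript itself lay at 34.9 to 86.1 FPKM in WT and between 206 and 602 FPKM in all 24 rap2.3-labelled libraries. The transcript was thus higher in the insertion line, and the lower-case name used here does not stand for less of it. Each genotype difference is the insertion line minus WT. Leaf and root markers were above 0 in all 48 libraries (5 of 5 and 4 of 4 genes), and the sum of 2 seed storage genes was 48.2 FPKM or less. Summed root markers lay at 1966 to 2558 FPKM in WT under CT and at 3476 to 5381 FPKM under S, and 4 of 4 rose under S in both genotypes. Their part in the salt results below was not tested. A gene was called at a limma adjusted p (Benjamini-Hochberg, over all genes of the fit) under 0.05, and differences are on the log2(FPKM + 1) scale with the standard error (SE), which understates changes at low FPKM.

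Under control conditions the receptor genes spanned a wide range of levels in WT. PYL4 was the most abundant at 154, 125 and 135 FPKM in the 3 libraries, in percentile 96.4 of the 23592 genes above 0. PYR1 at 69.1 ± 4.93 FPKM (SD, n = 3) and PYL8 at 64.7 ± 1.83 FPKM followed, and their libraries overlapped. PYL5 was at 50.6 ± 4.76 FPKM and PYL1 at 27.2 ± 1.68 FPKM, each clear of its neighbours in the order. The libraries of PYL7 (19.6 ± 3.18 FPKM) and PYL6 (14.4 ± 2.9 FPKM) overlapped, as did those of PYL6 and PYL9 (12.4 ± 0.774 FPKM). PYL2 was the lowest of the 9 at 2.3, 2.26 and 2.29 FPKM, in percentile 29.6. The PYL4 sub-family supplied 50.9% ± 1.81 of the summed FPKM of the 9 genes in WT under CT, the dimeric sub-family 24.8% ± 1.74 and the PYL8 sub-family 24.3% ± 0.585.

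**Figure D1:**
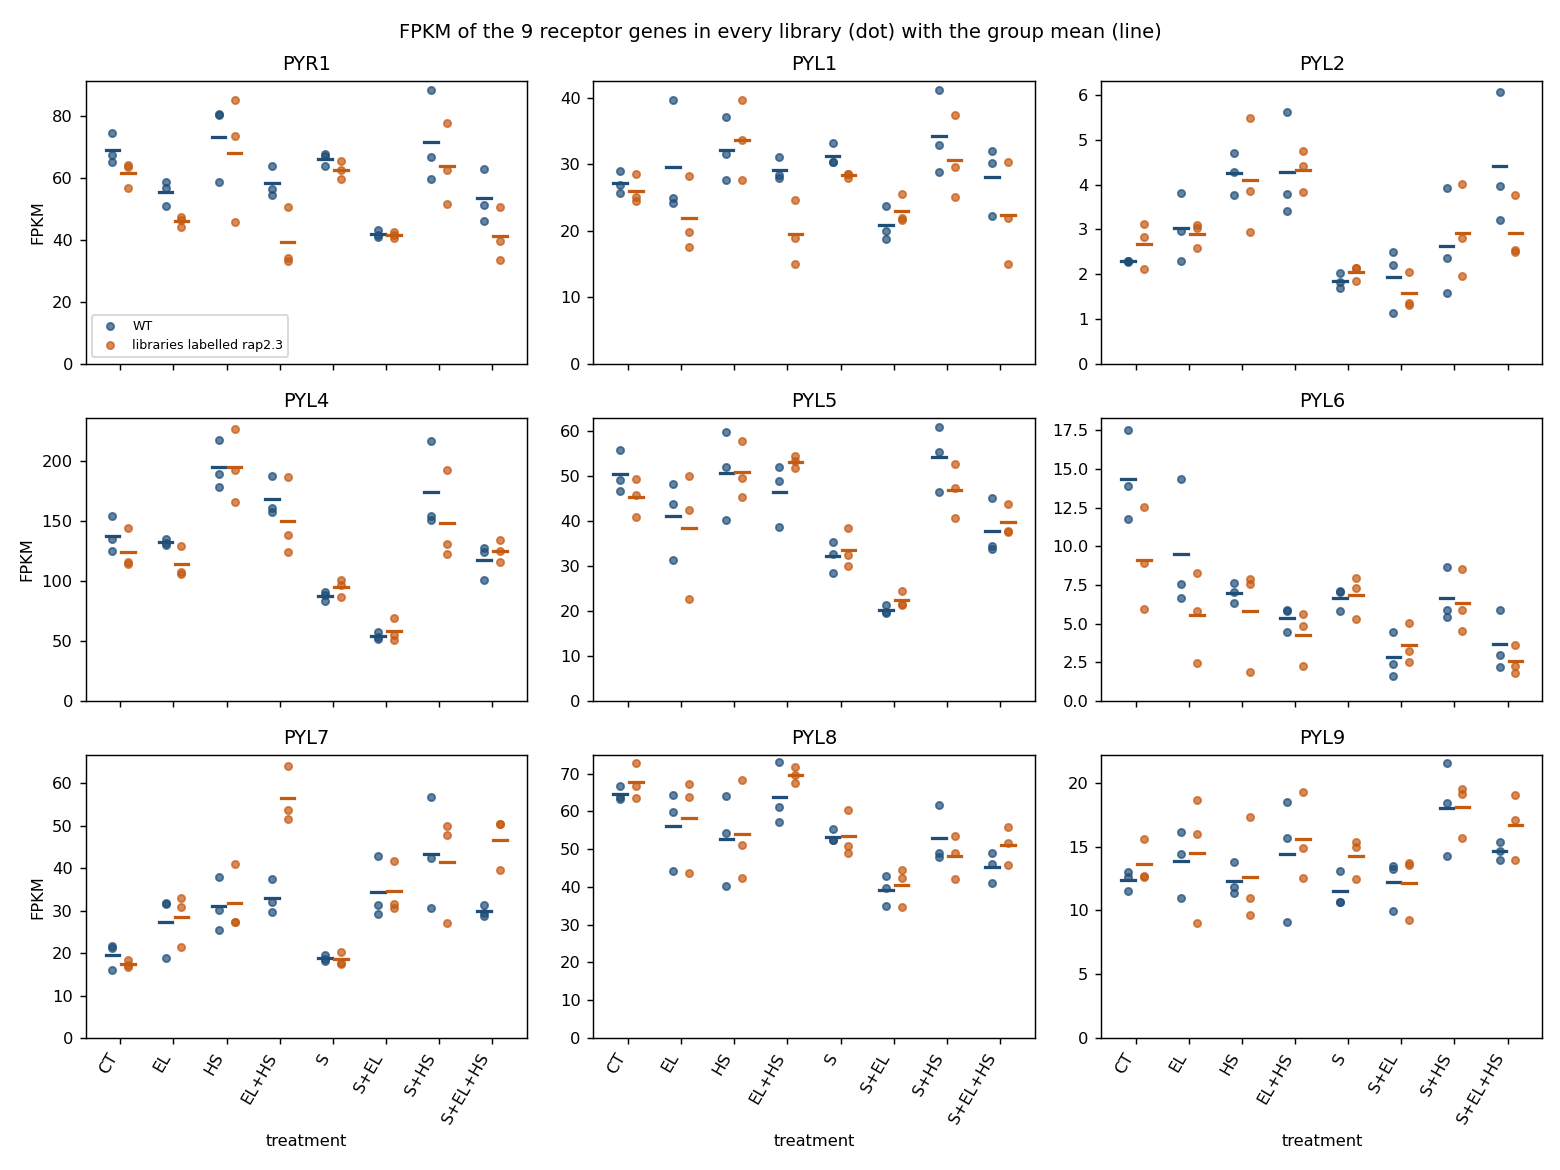
FPKM of each receptor gene (y axis, from 0) in the 8 treatments (x axis), 1 dot per library and a line for the mean of 3 libraries, WT in blue and the rap2.3-labelled libraries in orange. PYL4 and PYL5 are lowest under S+EL in both genotypes, PYL6 is highest under CT, and PYL7 is at 51.7 FPKM or more in the 3 EL+HS libraries labelled rap2.3.

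The other 5 PYL genes were at or near 0. PYL13 was listed at 0 in all 16 groups, and the means of PYL3, PYL10, PYL11 and PYL12 stayed at 1.15 FPKM or less in every group. PYL11 and PYL12 were tested in WT and PYL11 alone in the rap2.3-labelled libraries, and none of these passed in any of the 14 stress comparisons. PYL12 passed as lower in the mean effect of heat in WT (-0.47 ± 0.15, limma adjusted p 0.0132), at group means between 0 and 1.15 FPKM.

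The comparison of each stress with CT asked which receptor transcripts respond to the single and combined treatments. In WT, 25 of 63 gene and treatment pairs passed, 11 higher and 14 lower, a share to be read against 31.3% of all tests on all genes over the same 7 comparisons. EL called 0 of 9 members in WT by limma (17.7% of all genes were called), with 3 at an unadjusted p under 0.05, and PYL6 and PYL7 passed there without WT EL replicate 1. HS called 4 of 9 (30.8% of all genes), EL+HS 3 of 9 (31.3%) and S 3 of 9 (18.7%). S+EL called the most members, 6 of 9 (36%), S+HS 4 of 9 (44.9%) and S+EL+HS 5 of 9 (39.9%). By direction, 5 members were lower under S+EL in WT against 12.8% of all genes and 1 higher against 23.2%, and 3 were lower under S against 5.17%. Under S+HS 3 were higher (26% of all genes) and 1 lower (18.9%), under EL+HS 1 was lower (19.4%), and under EL none was lower (7.7%).

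Against their own CT, 17 of 63 pairs passed in the rap2.3-labelled libraries, 8 higher and 9 lower, beside 33.2% of all tests on all genes. EL called 1 member (14.3% of all genes), which was higher (7.61% of all genes were higher and 6.67% lower), HS 2 (29.9%), EL+HS 3 (41.9%) and S 0 (26.2%), with 2 members at an unadjusted p under 0.05 by limma under S. Rescaling the libraries by size factors moved the median over all genes from 0.18 to 0.00 under S, from -0.22 to -0.01 under EL+HS and from 0.13 to 0.01 under S+HS, and under S it then called PYL4, PYL5 and PYL8 as lower. S+EL called 6 of 9 again (34.7%), of which 5 were lower against 11.6% of all genes, S+HS called 2 (42.9%) and S+EL+HS 3 (42.7%). The median difference of the 9 members under S+EL was -0.71 in WT and -0.55 in the rap2.3-labelled libraries, where the medians of all genes were 0.09 and 0.10. Each of the 7 stress comparisons of a genotype shares the same 3 CT libraries. Of the 42 calls, 22 were kept in every alternative run, 12 in WT and 10 in the rap2.3-labelled libraries.

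**Figure D2:**
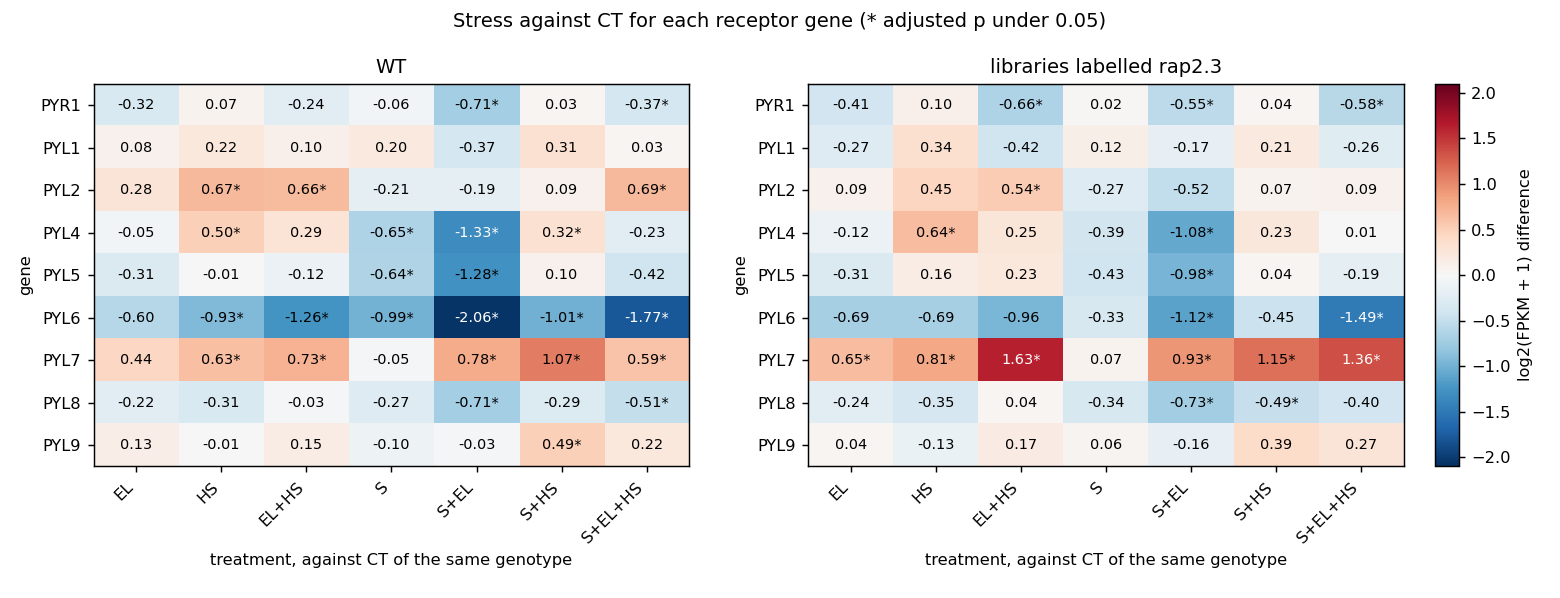
Differences in log2(FPKM + 1) between each stress (columns) and CT for the 9 receptor genes (rows), WT on the left and the rap2.3-labelled libraries on the right. Red cells are higher and blue cells lower than CT, and an asterisk marks a limma adjusted p under 0.05. PYL6 is blue in all 14 columns, PYL7 is red in 13 of 14, and the S+EL columns hold 6 calls each.

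PYL4, the most abundant receptor transcript, fell with salt and with salt plus light and rose with heat. In WT it went from 154, 125 and 135 FPKM under CT to 83.1, 91.2 and 88.6 FPKM under S and to 57.7, 53.3 and 52 FPKM under S+EL, with no overlap between the 3 groups. The differences were -0.65 ± 0.12 under S (limma adjusted p 0.00117) and -1.33 ± 0.12 under S+EL (adjusted p 1.37e-07). Under HS the 3 WT libraries were at 190, 218 and 178 FPKM, all above CT, a rise of 0.50 ± 0.12 (adjusted p 0.00462). With all 3 stresses PYL4 stood at 101, 128 and 125 FPKM, overlapping CT (-0.23, not called). The libraries labelled rap2.3 gave 116, 114 and 144 FPKM under CT, 51.2, 55 and 69.4 FPKM under S+EL (-1.08 ± 0.17, adjusted p 6.56e-05) and 166, 227 and 193 FPKM under HS (0.64 ± 0.17, adjusted p 0.00785). Under S they were at 96.6, 86.6 and 101 FPKM, below CT without overlap but not called (-0.39, adjusted p 0.105). The WT rise under S+HS (0.32 ± 0.12, limma adjusted p 0.0429) was lost in 7 of 11 alternatives. Without WT S+HS replicate 1, WT CT replicate 2 or WT CT replicate 3 it was 0.15 to 0.31 with an adjusted p between 0.0973 and 0.308. It was also lost with libraries rescaled by size factors (0.23, adjusted p 0.123) and in a fit of the compared groups alone (adjusted p 0.117). The same held without the filter on low values (adjusted p 0.0525) and with the replicate number as a block (adjusted p 0.0564).

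PYL5 varied most like PYL4 among the 16365 genes that reached 5 FPKM in some group and were compared. Across the 16 group means, the Pearson correlation of log2(FPKM + 1) between PYL4 and PYL5 was 0.958, a description over groups that share genotypes and treatments. The next genes in that order were AT1G58220 (0.947) and the nitrate transporter gene NRT1:2 (0.931). In WT, PYL5 went from 55.9, 49.2 and 46.7 FPKM under CT to 21.4, 19.5 and 19.8 FPKM under S+EL, a fall of 1.28 ± 0.17 on the log2 scale (adjusted p 5.87e-06). The libraries labelled rap2.3 gave 49.5, 45.9 and 41 FPKM under CT and 21.5, 21.4 and 24.5 FPKM under S+EL (-0.98 ± 0.19, adjusted p 0.000432). In both genotypes every S+EL library was below every CT library. Under S alone the WT libraries were at 32.8, 28.5 and 35.3 FPKM (-0.64 ± 0.17, adjusted p 0.0102), a call lost without WT CT replicate 1 or WT S replicate 2 (-0.57 and -0.56, adjusted p 0.0507 to 0.06). PYL5 under HS did not differ from CT by the test in either genotype (-0.01 in WT, 0.16 in the rap2.3-labelled libraries).

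PYL4 and PYL5 are both intronless, with coding lengths of 624 and 612 bases in the RefSeq annotation of TAIR10.1. The 300 bases upstream of their annotated starts are shown because these genes moved together, with capitals for any match to the heat shock element core GAANNTTC, the ABRE core ACGTG or the G-box CACGTG (which holds the ABRE core), searched on both strands. The windows are chr2:16049618-16049917 (plus strand) for PYL4 and chr5:1608688-1608987 (plus strand) for PYL5.
PYL4: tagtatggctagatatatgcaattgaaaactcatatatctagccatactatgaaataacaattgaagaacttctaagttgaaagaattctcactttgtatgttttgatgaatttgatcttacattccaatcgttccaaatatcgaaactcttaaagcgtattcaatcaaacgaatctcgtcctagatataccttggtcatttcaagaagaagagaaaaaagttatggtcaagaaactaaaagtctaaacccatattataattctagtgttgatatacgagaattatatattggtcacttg
PYL5: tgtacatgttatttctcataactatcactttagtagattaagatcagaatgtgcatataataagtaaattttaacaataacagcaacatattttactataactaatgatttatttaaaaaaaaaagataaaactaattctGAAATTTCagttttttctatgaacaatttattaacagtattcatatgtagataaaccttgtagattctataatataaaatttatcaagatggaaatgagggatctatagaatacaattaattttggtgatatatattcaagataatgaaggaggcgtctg
The PYL4 window held none of the 3 motifs, and the PYL5 window held 1 heat shock element core, at position -160 from the start. Over 27438 promoter windows of the same length, 11.5% held the heat shock element core, 25.6% the ABRE core and 7.09% the G-box.

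PYL6, the third member of that sub-family, was lower than CT on average under every stress. In WT it was at 11.8, 13.9 and 17.5 FPKM under CT, at 7.06, 5.81 and 7.11 FPKM under S and at 4.43, 2.41 and 1.62 FPKM under S+EL. Every one of these S and S+EL libraries was below every CT library. The fall was largest under S+EL (-2.06 ± 0.29, limma adjusted p 1.32e-05), followed by S+EL+HS (-1.77 ± 0.29, adjusted p 6.16e-05), EL+HS (-1.26 ± 0.29, adjusted p 0.00246) and S+HS (-1.01 ± 0.29, adjusted p 0.00714). PYL6 was thereby called lower under 6 of 7 stresses in WT, including HS (-0.93 ± 0.29, adjusted p 0.0178) and S (-0.99 ± 0.29, adjusted p 0.0194). The HS call was lost without WT HS replicate 1 or WT CT replicate 3 (-0.87 to -0.79, adjusted p 0.0542 to 0.0791), and the S call without WT S replicate 2 or WT CT replicate 3 (-0.91 to -0.85, adjusted p 0.0797 to 0.0851).

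In the rap2.3-labelled libraries, PYL6 was at 5.94, 8.89 and 12.5 FPKM under CT, a wider spread around a lower mean than in WT. It fell under S+EL+HS to 2.25, 3.61 and 1.83 FPKM (-1.49 ± 0.41, adjusted p 0.00668) and under S+EL to 5.02, 3.21 and 2.53 FPKM (-1.12 ± 0.41, adjusted p 0.0394). The S+EL call was lost without replicate 2 or 3 of CT or of S+EL (-1.12 to -0.89, adjusted p 0.0895 to 0.149). The other 5 differences lay between -0.96 and -0.33 and were not called. None of the 7 tests of a difference in response between genotypes called PYL6. The genes with the pattern most like PYL6 over the 16 group means were AT5G28630 (Pearson correlation 0.911), AT1G15125 (0.899) and NIG (0.892), which encodes a GTPase.

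PYR1, named for pyrabactin resistance, fell under salt plus light. In WT it went from 67.5, 74.6 and 65.1 FPKM under CT to 43.2, 40.9 and 41.5 FPKM under S+EL, without overlap (-0.71 ± 0.14, limma adjusted p 0.000415). Salt alone left it at 67.7, 67 and 63.8 FPKM, within the range of CT or just below it. Under S+EL+HS it was at 46.1, 51.4 and 62.9 FPKM (-0.37 ± 0.14, adjusted p 0.0362), a call lost without WT CT replicate 1 or 2 or WT S+EL+HS replicate 1 or 2 (-0.39 to -0.27, adjusted p 0.064 to 0.168). PYR1 in the rap2.3-labelled libraries went from 56.8, 63.4 and 64.2 FPKM under CT to 33.2, 34.2 and 50.5 FPKM under EL+HS (-0.66 ± 0.19, adjusted p 0.0102). The same libraries gave -0.55 ± 0.19 under S+EL (adjusted p 0.0309) and -0.58 ± 0.19 under S+EL+HS (adjusted p 0.0194). The EL+HS call was lost without rap2.3 EL+HS replicate 1 (-0.55, adjusted p 0.0522) and with rescaled libraries (-0.41, adjusted p 0.0728). The S+EL call was lost without CT replicate 2 or 3 or any S+EL replicate (-0.57 to -0.52, adjusted p 0.0626 to 0.0846), and the S+EL+HS call without CT replicate 2 or 3 or S+EL+HS replicate 1 or 3 (-0.57 to -0.45, adjusted p 0.0524 to 0.101).

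PYL1 was called under no stress in either genotype when all libraries entered as deposited. Its WT libraries ranged from 18.8 to 41.2 FPKM with a median of 28.9 FPKM, and the lowest group was S+EL at 23.7, 18.8 and 20 FPKM, all below the CT libraries at 29, 25.6 and 26.9 FPKM (-0.37 ± 0.17, adjusted p 0.094). Under S+EL PYL1 passed in WT with rescaled libraries, in a fit of the compared groups alone and without WT EL replicate 1. PYL2, also dimeric, rose in WT with heat, with heat plus light and with all 3 stresses. PYL1 and PYR1 were not called under HS in WT (0.22 and 0.07) and passed as higher in the mean effect of heat there with rescaled libraries. In WT PYL2 was at 2.3, 2.26 and 2.29 FPKM under CT, and at 3.76, 4.71 and 4.28 FPKM under HS. EL+HS gave 3.78, 3.41 and 5.62 FPKM, and with all 3 stresses the libraries held 6.06, 3.2 and 3.96 FPKM. Under S+HS, the remaining heated group, PYL2 was at 3.92, 1.58 and 2.35 FPKM, overlapped CT and was not called. All 9 libraries of HS, EL+HS and S+EL+HS were above the 3 CT libraries. The differences in these 3 groups were 0.67 ± 0.24, 0.66 ± 0.24 and 0.69 ± 0.24 (limma adjusted p 0.0362, 0.0392 and 0.0268). Leaving out single libraries ended each of these PYL2 calls, and the cause was not tested. Without any 1 of the CT libraries the HS call was lost, as it was without WT HS replicate 2 or 3 (0.61 to 0.68, adjusted p 0.0758 to 0.111). The EL+HS call was lost without any 1 of the CT libraries or WT EL+HS replicate 1 or 3 (0.48 to 0.72, adjusted p 0.0525 to 0.175). The S+EL+HS call was lost without any 1 of the CT libraries or WT S+EL+HS replicate 1 (0.48 to 0.69, adjusted p 0.0573 to 0.153). In the rap2.3-labelled libraries, PYL2 rose under EL+HS from 2.11, 3.11 and 2.82 to 4.75, 3.83 and 4.42 FPKM (0.54 ± 0.20, adjusted p 0.0367), a call lost without replicate 1 or 3 of CT or of EL+HS (0.42 to 0.57, adjusted p 0.061 to 0.149).

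PYL7 was called higher than CT under most stresses, and its mean was above CT in 13 of 14 comparisons. In WT it was at 21.8, 16 and 21.1 FPKM under CT, at 18.2, 18.6 and 19.6 FPKM under S and at 30.7, 56.9 and 42.3 FPKM under S+HS. It was called higher under 5 of 7 stresses in WT and 6 of 7 in the rap2.3-labelled libraries, with S as an exception in both. The WT increases were 1.07 ± 0.21 under S+HS (limma adjusted p 0.000321), 0.78 ± 0.21 under S+EL (adjusted p 0.0063), 0.73 ± 0.21 under EL+HS (adjusted p 0.0116), 0.63 ± 0.21 under HS (adjusted p 0.0262) and 0.59 ± 0.21 under S+EL+HS (adjusted p 0.0296). Under S+EL the 3 WT libraries at 29.3, 42.8 and 31.4 FPKM were all above CT, in the treatment in which PYL4, PYL5, PYL6, PYL8 and PYR1 fell. The EL+HS call was lost without replicate 2 of WT CT or of WT EL+HS (0.60 to 0.64, adjusted p 0.0519 to 0.0596). The HS call was lost without WT HS replicate 1 or 2 or WT CT replicate 2 (0.49 to 0.65, adjusted p 0.058 to 0.121). The S+EL+HS call was lost without WT CT replicate 2 or any WT S+EL+HS replicate (0.46 to 0.62, adjusted p 0.0536 to 0.132) and with rescaled libraries (0.52, adjusted p 0.0799).

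PYL7 in the rap2.3-labelled libraries was at 16.8, 18.5 and 17.3 FPKM under CT and reached 64.2, 51.7 and 53.7 FPKM under EL+HS, the highest group mean of this gene. The increase was 1.63 ± 0.21 (limma adjusted p 5.78e-06). Under S+EL+HS the libraries stood at 50.3, 50.3 and 39.6 FPKM (1.36 ± 0.21, adjusted p 2.81e-05) and under S+HS at 27, 49.9 and 47.8 FPKM (1.15 ± 0.21, adjusted p 0.000155). All of these libraries were above the CT libraries. S+EL gave 0.93 ± 0.21 (adjusted p 0.00146) and HS 0.81 ± 0.21 (adjusted p 0.00549). EL gave 0.65 ± 0.21 (adjusted p 0.0402), which was lost without any 1 of the CT libraries or EL replicate 2 or 3 (0.53 to 0.68, adjusted p 0.0756 to 0.155), without the filter on low values (adjusted p 0.059) and in a fit of the compared groups alone (adjusted p 0.0728).

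PYL7 lies at chr4:446978-448511 on the plus strand of TAIR10.1 and overlaps AT4G01030 over 571 bases and the long non-coding RNA AT4G03845 over 269 bases, both on the other strand. The strand setting of the quantification is not given in the sources used here. AT4G01030 was listed at 0.986 to 2.84 FPKM over the 48 libraries and AT4G03845 at 0 in 45 of 48, with a maximum of 12.1 FPKM, so PYL7 exceeded both in every library. PYL7 was also the member with most ABRE cores in the 300 bases upstream, with matches at -265, -70, -69 and -10, of which those at -70 and -69 are both strands of 1 G-box. The far part of this window lies in AT4G01023, a neighbouring gene on the plus strand that was listed at 0 in 31 of 48 libraries. The match at -265, the farthest from the start, may lie within that gene. PYR1 had 1 ABRE core at -20, and the other 7 members had none. Thus 2 of 9 members held an ABRE core, beside 25.6% of all promoter windows, and 1 of 9 a G-box, beside 7.09%. The pieces around the G-box (chr4:446895-446924) and just before the start (chr4:446949-446977) are shown with the motif letters in capitals, since these are the letters PYL4 and PYL5 lack.
PYL7 around the G-box: agagagatatacaCACGTGcttaaagtcaa
PYL7 before the start: caaaccagttaaactaagaCACGTaatct
A match of 5 letters is a description of these windows and does not show that a factor binds there.

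PYL7 and PYL9 are close relatives, and the longest run of identical transcript bases between any 2 of the 9 members is the following stretch, in the coding sequence of both. It is shown because reads within it cannot be assigned to 1 gene.
PYL7 and PYL9: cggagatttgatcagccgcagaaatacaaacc
At 32 bases it is short beside coding lengths of 636 and 564 bases. Coding identity was 52.1% to 72.2% over the 9 pairs within sub-families and 46% to 56.1% over the 27 pairs between them. PYL7, PYL8 and PYL9 each have 3 coding exons, while the other 6 members have 1.

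PYL8 fell under salt plus light in both genotypes. In WT it went from 66.8, 63.4 and 63.8 FPKM under CT to 42.9, 39.7 and 35.1 FPKM under S+EL (-0.71 ± 0.15, limma adjusted p 0.000996). The libraries labelled rap2.3 went from 63.6, 72.7 and 66.7 FPKM to 34.8, 44.4 and 42.5 FPKM (-0.73 ± 0.16, adjusted p 0.00153), again with no overlap. PYL8 was also lower under S+EL+HS in WT (-0.51 ± 0.15, adjusted p 0.0118), a call lost without WT S+EL+HS replicate 1 (-0.44, adjusted p 0.0554). Under S+HS it was lower in the rap2.3-labelled libraries (-0.49 ± 0.16, adjusted p 0.0199), a call lost without S+HS replicate 1 or CT replicate 2 (-0.44 to -0.39, adjusted p 0.0747 to 0.0893). In both genotypes the PYL8 libraries of every salt group lay below CT without overlap, also where no call was made. Under S alone the differences were -0.27 in WT (limma adjusted p 0.235) and -0.34 in the rap2.3-labelled libraries (adjusted p 0.132). PYL9 moved least: its 16 group means lay between 11.5 and 18.1 FPKM. It rose under S+HS in WT from 11.5, 13 and 12.6 to 14.3, 21.5 and 18.4 FPKM (0.49 ± 0.20, adjusted p 0.0459). That call was lost without any 1 of the CT libraries or WT S+HS replicate 2 or 3 (0.36 to 0.53, adjusted p 0.0685 to 0.191) and with rescaled libraries (0.41, adjusted p 0.136).

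Averaging over the other stresses separated the 3 factors, each as the mean of the 4 groups with a factor minus the mean of the 4 without. Salt lowered PYL4, PYL5, PYL6, PYL8 and PYL2 in WT, and no member was called higher (5 of 9 members, beside 45.9% of all genes in either direction and 12.5% lower). In the rap2.3-labelled libraries it lowered PYL4, PYL5, PYL8 and PYL2 (4 of 9, beside 53.7% and 12.6%). The salt differences of PYL4 were -0.65 ± 0.06 in WT (limma adjusted p 9.61e-08) and -0.50 ± 0.09 in the rap2.3-labelled libraries (adjusted p 7.12e-05). The lower PYL2 in WT (-0.31 ± 0.12, adjusted p 0.039) lost its call in 15 of the 24 fits without 1 WT library (-0.31 to -0.25, adjusted p 0.0511 to 0.0802). The median over all genes moved by 0.11 in WT and 0.15 in the rap2.3-labelled libraries under salt and by 0.00 in both after rescaling. Root markers moved with salt as well: 4 of 4 were higher in the mean effect of salt in both genotypes, and 3 of 5 leaf markers were lower in WT and 4 of 5 (with 1 higher) in the rap2.3-labelled libraries.

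The light effects were averages over salt and heat, and EL alone called 0 of 9 members in WT (17.7% of all genes). On average, excess light lowered PYR1, PYL4, PYL5 and PYL6 in WT (4 of 9, beside 27.8% of all genes, 14.5% lower), by 0.37 to 0.69 on the log2 scale. In the rap2.3-labelled libraries it lowered these 4 and PYL1 and raised PYL7 (6 of 9, beside 43.8% of all genes, 31.5% lower and 12.3% higher). With light, 3 of 5 leaf markers were lower and 1 higher in WT, 2 lower and 1 higher in the rap2.3-labelled libraries, and 0 and 2 of 4 root markers were lower, and their part in the light results was not tested. PYR1 fell by 0.42 ± 0.07 in WT (adjusted p 0.000108) and by 0.59 ± 0.10 in the rap2.3-labelled libraries (adjusted p 7.63e-05). In the latter, rescaling moved the median of all genes from -0.12 to -0.01 and ended the calls of PYL4 (-0.22, adjusted p 0.0562) and PYL5 (-0.12, adjusted p 0.404). The PYL5 call there (-0.26 ± 0.09, adjusted p 0.0344) was also lost in 9 of the 24 fits without 1 library (-0.25 to -0.23, adjusted p 0.0505 to 0.063). Without salt or heat, WT PYL4 had means of 138 FPKM under CT and 133 FPKM under EL. On salt its WT means were 87.6 FPKM under S and 54.3 FPKM under S+EL. PYR1 in WT went from a mean of 69.1 FPKM under CT to 55.3 FPKM under EL, without overlap but not called.

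On average over salt and light, heat acted in the other direction. PYL2, PYL4, PYL5 and PYL7 rose in both genotypes and no member was called lower. These are 4 of 9 members, beside 47.4% of all genes in WT (18.8% higher) and 50.3% in the rap2.3-labelled libraries (16.2% higher). PYL4 rose by 0.72 ± 0.06 in WT (limma adjusted p 1.14e-08) and by 0.68 ± 0.09 in the rap2.3-labelled libraries (adjusted p 2.26e-06). PYL7 rose by 0.47 ± 0.10 in WT (adjusted p 0.00106) and by 0.82 ± 0.10 in the rap2.3-labelled libraries (adjusted p 1.94e-06). The WT mean of PYL7 was higher with heat added to CT, EL or S. It was lower, with overlapping libraries, with heat added to S+EL (34.5 FPKM, against 29.9 FPKM under S+EL+HS). WT PYL5 had means of 50.6 FPKM under CT and 50.7 FPKM under HS, but 32.2 FPKM under S and 54.3 FPKM under S+HS. Markers moved with heat too: 5 of 5 leaf markers were lower in WT and 4 of 5 in the rap2.3-labelled libraries, as were 2 and 3 of 4 root markers, and their part in the heat results was not tested. PYL6 went the other way without a call, at -0.33 in WT and -0.36 in the rap2.3-labelled libraries. Of the 27 factor calls in both genotypes, 24 were kept in every alternative.

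**Figure D3:**
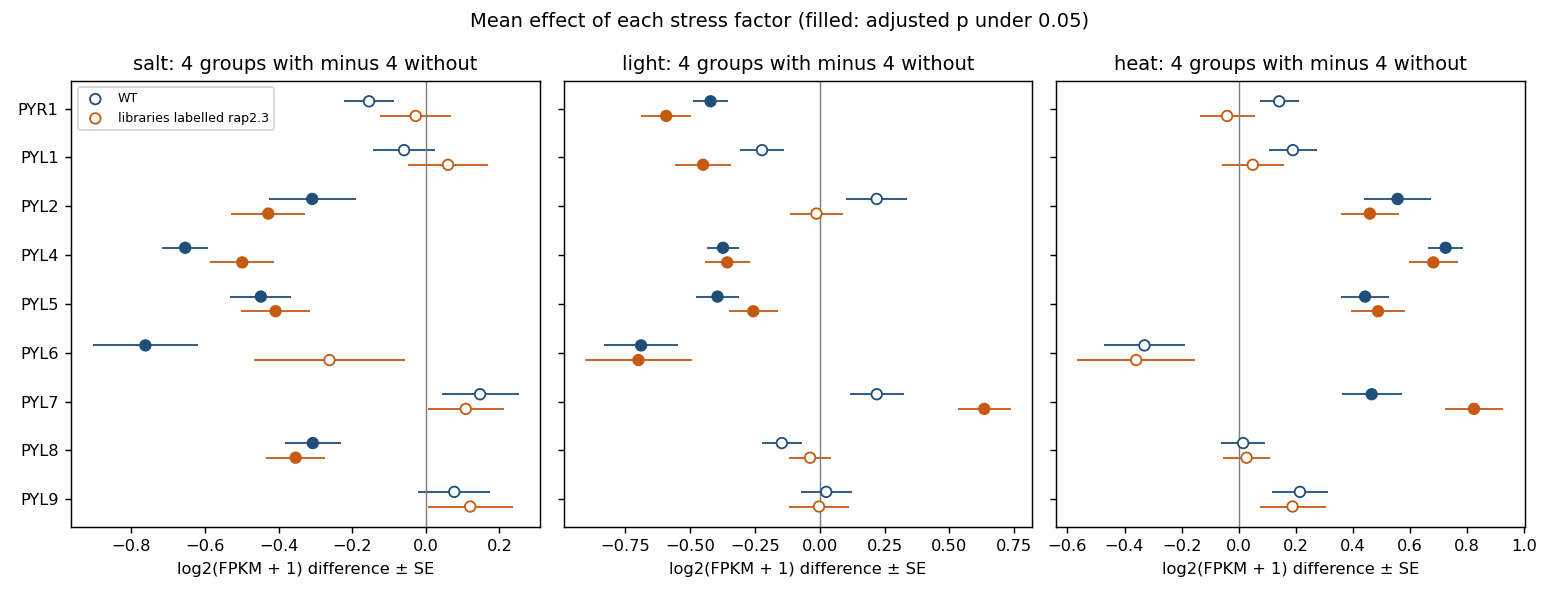
Mean effect of salt, excess light and heat on each receptor gene (rows) as the log2(FPKM + 1) difference with its SE (x axis, a separate scale for each panel), WT in blue and the rap2.3-labelled libraries in orange, filled where the limma adjusted p is under 0.05. PYL4 and PYL5 lie left of 0 for salt and light and right of 0 for heat in both genotypes.

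Whether 2 factors together differ from the sum of each was tested for the 3 pairs, averaged over the remaining factor. In WT, 2 of 27 tests passed (4.78% of all tests on all genes) and 10 had an unadjusted p under 0.05. Salt by light called 0 members (0.082% of all genes, 0.00964% higher and 0.0723% lower), with 4 at an unadjusted p under 0.05 by limma. The salt by heat term of PYL4 was 0.61 ± 0.12 (limma adjusted p 0.0478, where 0.202% of all genes were called, 0.0675% lower): salt lowered PYL4 from a mean of 138 to 87.6 FPKM without heat and from 195 to 174 FPKM with heat, in the absence of excess light. That call was lost in 18 of the 24 fits without 1 WT library (0.57 to 0.66, adjusted p 0.0543 to 0.0972). The corresponding terms of PYL5 (0.71 ± 0.17, adjusted p 0.0824) and PYL6 (0.93 ± 0.29, adjusted p 0.187) did not pass. The light by heat term of PYL7 was -0.82 ± 0.21 in WT (adjusted p 0.0117, with 14.1% of all genes called, 6.01% higher and 8.05% lower), kept in every alternative. In the rap2.3-labelled libraries it was -0.24 ± 0.21 and not called, and the 1 call of 27 (4.94% of all tests) was that of PYL8 for light by heat (0.55 ± 0.16, adjusted p 0.0271). The PYL8 call was lost without rap2.3 S+HS replicate 1, CT replicate 2, HS replicate 3 or S replicate 3 (0.47 to 0.53, adjusted p 0.0504 to 0.0536).

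Under salt plus light the summed receptor transcripts were lower and the summed PP2C transcripts higher than under CT, although PYL7 was called higher there in both genotypes and PYL4 is the largest part of the receptor sum under CT. The summed FPKM of the 9 receptor genes were 398 ± 19.8 in WT under CT and 228 ± 9.34 under S+EL (SD, n = 3), while those of the 9 clade A PP2C genes were 99.9 ± 3.94 and 433 ± 113. The receptor sum was thus 3.91 to 4.05 times the PP2C sum in the 3 CT libraries and 0.419 to 0.712 times in the 3 S+EL libraries. The rap2.3-labelled libraries had a ratio of 3.23 to 3.34 under CT and 0.553 to 0.828 under S+EL. No other group had a library with a ratio below 1. S alone gave 2.34 to 2.96 in WT and HS gave 3.94 to 5.54. Within the receptor sum, PYL4 supplied 34.6% ± 2.02 in WT under CT, 23.8% ± 0.785 under S+EL and 42.5% ± 1.44 under HS. The PYL8 sub-family rose from 24.3% ± 0.585 under CT to 37.7% ± 3.24 under S+EL, the only WT group in which it exceeded the PYL4 sub-family (33.9% ± 1.56). Sums and shares are of transcripts, and no test was made on them. Marker genes moved in the same groups: summed leaf markers lay at 33337 to 35904 FPKM in WT under CT and at 25162 to 26802 FPKM under S+EL, with 3 of 5 lower in each genotype, and 4 of 4 root markers were higher under S+EL in WT and 2 of 4 in the other genotype. Their part in the S+EL results was not tested.

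**Figure D4:**
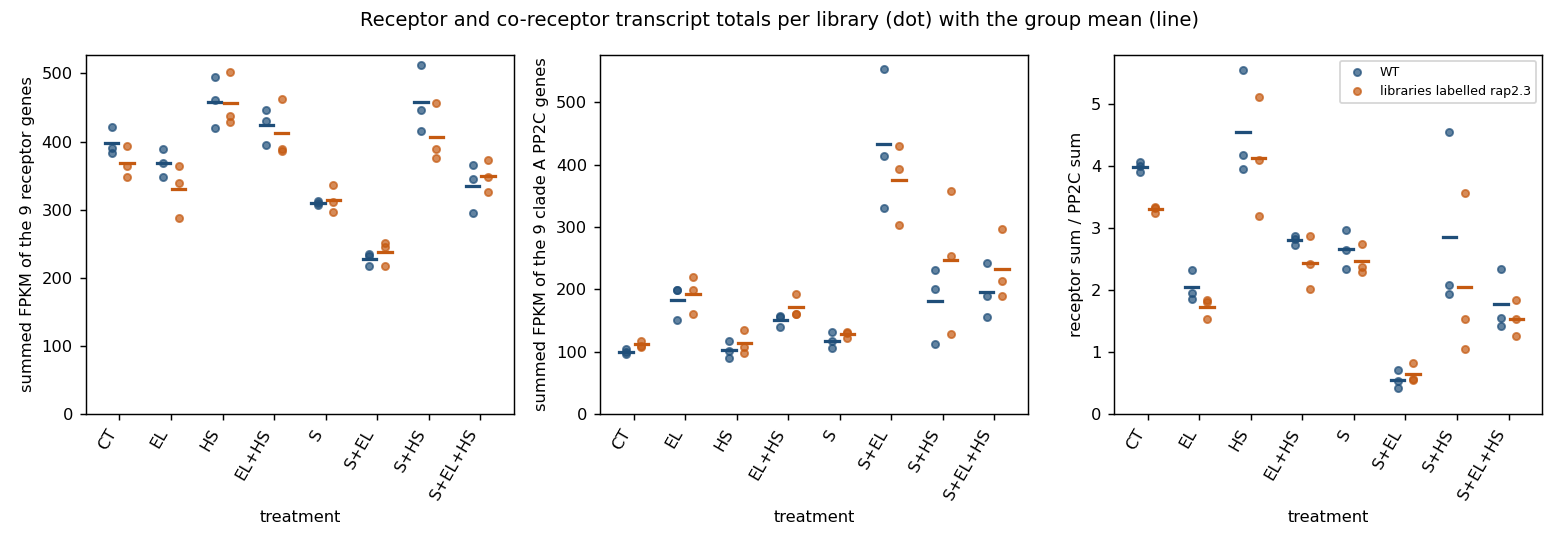
Summed FPKM of the 9 receptor genes, summed FPKM of the 9 clade A PP2C genes and their ratio (y axes, from 0) in the 8 treatments, 1 dot per library and a line for the mean, WT in blue and the rap2.3-labelled libraries in orange. The 6 S+EL libraries have the lowest ratios, all at 0.828 or less.

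Other genes of the pathway were described from lists chosen with earlier results of these data known. Counts under S+EL stand beside 23.2% of all genes called higher in each genotype and 12.8% (WT) and 11.6% called lower. Of the 9 clade A PP2C genes, 9 were higher under S+EL in WT (median difference 2.23, where the median of all genes was 0.09) and 8 in the rap2.3-labelled libraries. Under S, 0 and 1 were higher, beside 13.6% and 21% of all genes. HAI1, a PP2C of the highly ABA-induced group, was at 0.858 ± 0.751 FPKM under CT and 70.3 ± 33.9 FPKM under S+EL in WT (n = 3). ABI1 rose from 24.2 ± 2.2 to 118 ± 21.2 FPKM (2.23 ± 0.22, limma adjusted p 1.92e-07) and ABI2 from 4.65 ± 0.667 to 27.4 ± 7.98 FPKM (2.3 ± 0.23, adjusted p 2.7e-07). ABI1 overlaps a gene on the other strand, as do SRK2I, ABF1, ABF3, AAO3, MYB44 and MYB73 below.

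Of the 3 ABA-activated SnRK2 kinase genes, 1 was called higher under S+EL in each genotype, OST1, the guard cell kinase. All 3 were higher under S+HS and in the mean effect of salt in both genotypes, beside 26% and 33.4% of all genes in WT and 27.2% and 41.1% in the rap2.3-labelled libraries. OST1 rose from 15.1 ± 1.69 to 23.3 ± 2.45 FPKM in WT (0.60 ± 0.11, limma adjusted p 0.000215). SRK2I rose with HS in WT from 17.8 ± 3.83 to 31 ± 2.47 FPKM (0.79 ± 0.15, adjusted p 0.000573). SRK2D was at 58.6 ± 6.25 FPKM under CT and 58.9 ± 3.23 FPKM under S+EL in WT. Of 5 ABF and ABI5 factor genes, 2 were higher under S+EL in both genotypes: ABF3 went from 37.5 ± 3.98 to 93.3 ± 15 FPKM and ABF2 from 12.1 ± 1.48 to 37.2 ± 10.4 FPKM in WT. ABF1 fell with HS in WT from 14.9 ± 0.873 to 9.5 ± 1.55 FPKM (adjusted p 0.0113).

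Among 7 ABA synthesis genes, 5 were tested, and under S+EL in WT 1 rose and 1 fell. NCED3, which encodes the enzyme that limits stress-induced ABA synthesis, rose from 1.19 ± 0.0927 to 28.1 ± 11.3 FPKM (3.67 ± 0.33, limma adjusted p 8.34e-08), and AAO3, for the last step, was lower (-0.36 ± 0.12, adjusted p 0.0194). ABA1, zeaxanthin epoxidase, fell with HS from 279 ± 17.1 to 128 ± 29.1 FPKM (-1.15 ± 0.13, adjusted p 1.22e-06). Of the 4 ABA 8'-hydroxylase genes, which break ABA down, CYP707A1 and CYP707A4 rose under S+EL in both genotypes, CYP707A1 from 2.23 ± 0.625 to 11.7 ± 1.55 FPKM in WT. CYP707A2 fell with HS in WT from 9.06 ± 2.16 to 4.94 ± 1.03 FPKM (adjusted p 0.015). All 6 ABA-induced genes listed rose under S+EL in both genotypes, with medians of 3.22 and 2.38. RD29A went from 7.06 ± 1.97 to 242 ± 86.1 FPKM in WT, LTI30 from 20.7 ± 2.23 to 161 ± 30.4 FPKM, and KIN1, which has a close tandem paralog that may share its reads, from 0.898 ± 0.537 to 138 ± 48.6 FPKM.

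A list of 7 genes for receptor turnover and partners held FREE1, an ESCRT protein that sends receptors to the vacuole, and the MYB factors MYB44 and MYB73, which bind PYL8. Under S+EL in WT 2 of 7 rose, near the 23.2% of all genes that did: MYB44 from 42.1 ± 0.353 to 75 ± 7.81 FPKM (0.81 ± 0.13, limma adjusted p 7.03e-05) and FREE1 from 38.8 ± 3.75 to 53.7 ± 2.26 FPKM (0.46 ± 0.09, adjusted p 0.000343). MYB73 fell under S+EL in the rap2.3-labelled libraries (-0.46 ± 0.16, adjusted p 0.0281).

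The genotype comparison asked whether the receptor genes differ between the rap2.3-labelled libraries and WT. Genotype coincides with the deposited table, so the line and the table cannot be told apart. Over the 8 treatments 2 of 72 tests passed (0.97% of all tests on all genes), both under EL+HS, where 7.39% of all genes were called. PYL7 was at 29.8, 37.4 and 32.1 FPKM in WT and at 64.2, 51.7 and 53.7 FPKM in the rap2.3-labelled libraries (0.76 ± 0.21, limma adjusted p 0.0285). PYR1 was at 56.4, 54.4 and 63.9 FPKM in WT and at 33.2, 34.2 and 50.5 FPKM in the rap2.3-labelled libraries (-0.58 ± 0.17, adjusted p 0.0358). For both genes the groups did not overlap. The PYL7 call was lost without replicate 1 or 3 of either genotype under EL+HS (0.66 to 0.79, adjusted p 0.0603 to 0.116), and the PYR1 call without WT replicate 1 or 3 or rap2.3 replicate 1 or 2 (-0.60 to -0.47, adjusted p 0.0576 to 0.174). Both were lost in a fit of the 6 libraries alone (adjusted p 0.0771 and 0.127), and PYR1 with rescaled libraries (-0.39, adjusted p 0.122), where the median of all genes moved from -0.14 to 0.01. Summed root markers under EL+HS lay at 1600 to 1947 FPKM in WT and at 1011 to 1634 FPKM in the rap2.3-labelled libraries, with 2 of 4 lower, and their part in this result was not tested.

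Averaged over the treatments, 1 of 9 members differed (10.3% of all genes): PYR1 was lower in the rap2.3-labelled libraries by 0.22 ± 0.06 (limma adjusted p 0.0158), in group means at 8 of 8 treatments. That call was kept in all 53 alternatives run. For the mean difference, 3 of 4 root markers were lower as well. No test of a different response to a stress between genotypes passed (0 of 63, beside 0.00134% of all tests, with 2 at an unadjusted p under 0.05), nor did one for a factor (0 of 27, beside 0% of all tests, with 2 at an unadjusted p under 0.05). The stress term of PYL7 under EL+HS was 0.90 ± 0.30 (limma adjusted p 0.396) and that of PYL6 under S+EL was 0.93 ± 0.52 (adjusted p 1). Deviations from the group means of libraries with the same replicate number correlated positively between the 2 genotypes at every treatment (0.014 to 0.52). All 3 correlations were over 0.1 at EL alone, but the highest at HS, S+EL and S+HS were 0.357, 0.304 and 0.267. The main genotype fits did not include this pairing. At EL+HS these correlations were 0.016 to 0.121 and at S+EL+HS 0.014 to 0.068, so pairing is little seen there. With treatment and number together as a block, 4 of 72 genotype tests, 4 of 9 mean differences and 1 of 63 stress terms passed, the last being PYL7 under EL+HS. The added calls were PYL1 under EL+HS, PYL7 under S+EL+HS, and PYL1, PYL6 and PYL7 in the mean difference. That block also called PYL7 for genotype by light (0.41 ± 0.15, adjusted p 0.428 without the block).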

How the data were processed

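RNA of whole seedlings was sequenced as paired-end reads on an Illumina NovaSeq instrument, per the labels' protocols. Each genotype has its own deposited table of FPKM, per the file headers, with 32826 rows for 32824 genes (rows of repeated identifiers were summed). HISAT2, Cufflinks and TAIR10 are named in the submitters' processing notes, without versions or roles, and the strand setting is not given in the sources used here. FPKM hold no read counts, so depth is unknown and no interval for counting error is given. There were 2028 positive values under 1e-100, so an exact 0 can be a failed estimate.

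Tests ran on log2(FPKM + 1) in limma 3.58.1 (R 4.3.3, with a trend of variance on mean level and 1 mean per group). A gene was tested where 3 or more libraries of the fit reached 1 FPKM: 20744 over the 24 WT libraries, 20592 over the 24 labelled rap2.3 (16 residual degrees of freedom each) and 21322 over all 48 (32). Benjamini-Hochberg adjustment ran over all genes tested, separately for the 45 contrasts. Calls needed an adjusted p under 0.05. Alternatives were a pseudocount of 0.1, no filter, rescaling by size factors (median of ratios, 18345 genes), a block for the replicate number (also within treatment, across genotypes), a fit of the compared groups alone, and leaving out each library. The fits were also run on simulated data with independent noise, and no result given here rests on that run.

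The members, lists and tests were chosen with earlier results of these data known. All 9 members are named. From each list up to 3 genes were named, those called in the same direction in the most of the 14 stress comparisons. For the 2 members with the widest range, the 3 genes with the most similar group means are named. Coordinates and sequences are from RefSeq, TAIR10.1. Protein sequences were not used here. To check whether replicate numbers pair libraries, each library's deviation from its group mean was correlated with that of the library of the same number. Between genotypes the correlations were all positive, at 0.014 to 0.52 over all treatments, and all 3 were over 0.1 at EL alone (lowest 0.103). Between CT and stress they were -0.117 to 0.089 in WT and -0.106 to 0.115 in the rap2.3-labelled libraries. Python 3.11.15 with matplotlib 3.10.9 drew the figures.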

Additional observations from a re-analysis of the deposited data

Results flagged for a closer look

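For 3 member genes the effect of 1 stress factor differed by whether a second factor was present, by the test of that difference. These were 2 of 27 tests in WT (4.78% of all tests on all genes) and 1 of 27 in the rap2.3-labelled libraries (4.94%). Light by heat called 1 of 9 members in each genotype, beside 14.1% of all genes in WT and 14.8% in the rap2.3-labelled libraries. Salt by heat called 1 of 9 in WT, beside 0.202% of all genes. Of these calls, that of PYL7 was kept in all 28 alternatives, while that of PYL4 was lost in 22 of 28 and that of PYL8 in 4 of 28. PYL4 had a salt by heat term of 0.61 ± 0.12 on the log2(FPKM + 1) scale in WT: in the absence of excess light, the WT means were 138 FPKM under CT, 87.6 FPKM under S, 195 FPKM under HS and 174 FPKM under S+HS. PYL7 had a light by heat term of -0.82 ± 0.21 in WT, with means of 19.6 FPKM under CT, 27.4 FPKM under EL, 31.1 FPKM under HS and 33.1 FPKM under EL+HS without salt, and 18.8, 34.5, 43.3 and 29.9 FPKM in the same order on salt. PYL8 had a light by heat term of 0.55 ± 0.16 in the rap2.3-labelled libraries, with means of 67.7 FPKM under CT, 58.2 FPKM under EL, 53.9 FPKM under HS and 69.7 FPKM under EL+HS without salt, and 53.5, 40.6, 48.1 and 51.1 FPKM in the same order on salt.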

How the results depend on the processing

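No call of a member changed its sign in any alternative. The counts over WT stress (25), stress in the rap2.3-labelled libraries (17) and factor effects (13 and 14) stayed within 1.5 times under each alternative that keeps all libraries. The 2 WT calls for pairs of factors went to 1 with a pseudocount of 0.1, without the filter on low values, with rescaled libraries and with the replicate number as a block, in each case through PYL4 (adjusted p 0.051 to 0.0735). The 2 genotype calls at single treatments went to 1 with rescaled libraries, to 4 with the replicate block within treatment and to 0 in a fit of the compared groups alone. With the replicate block within treatment, the mean genotype difference went from 1 call to 4, the stress terms from 0 to 1, and PYL7 passed for genotype by light, where no member passed without the block.

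Leaving out 1 library at a time gave 16 (without WT CT replicate 2) to 29 calls for WT stress, 12 to 22 for stress in the rap2.3-labelled libraries, 12 to 17 and 13 to 14 for factor effects, 1 to 4 and 0 to 1 for factor pairs, 0 to 3 for the genotype at each treatment, 1 to 2 for the mean genotype difference and 0 to 0 for the stress terms. A left-out library leaves its group with 2. The replicate number as a block gave 24 calls for WT stress, 15 for stress in the rap2.3-labelled libraries, 13 and 14 for factor effects, 1 and 1 for factor pairs, 2 for genotype and 0 for stress terms, and it ended the calls of PYL7 under EL (adjusted p 0.0506) and PYL6 under S+EL (adjusted p 0.0507) in the rap2.3-labelled libraries and of PYL4 under S+HS (adjusted p 0.0564) in WT. Where a call was lost the cause was not tested.

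PYL2 and PYL6 are the members with the lowest FPKM, so their differences are the most understated by the pseudocount. Depth is unknown. The labels call the 3 pools of a group biological repeats and say no more of how they were kept apart, so p-values measure the spread between these pools. Genotype and table coincide.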

Other observations

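Libraries with the same replicate number stood apart together in some treatments, a pattern chosen after its values were seen. Under EL, replicate 1 had the lowest PYL5 of its group in both genotypes (31.3 FPKM in WT and 22.6 FPKM in the rap2.3-labelled libraries), the lowest PYL7 (18.9 and 21.4 FPKM), the lowest PYL8 (44.2 and 43.8 FPKM) and the lowest PYL9 (10.9 and 8.98 FPKM). The same libraries had the highest PYL1 (39.7 and 28.2 FPKM) and the highest PYL6 (14.4 and 8.3 FPKM). Under S+HS, replicate 1 had the highest PYL4 (217 and 193 FPKM) and PYR1 (88.5 and 77.6 FPKM) and the lowest PYL7 (30.7 and 27 FPKM). PP2C genes summed to 113 FPKM in that WT library and to 128 FPKM in its rap2.3-labelled counterpart, and the ratio of receptor to PP2C transcripts was 4.55 and 3.56, above the other 4 S+HS libraries.

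Members of a sub-family did not all share a pattern over the 16 group means. The Pearson correlation of log2(FPKM + 1) was 0.958 for PYL4 and PYL5, while over the 9 pairs within sub-families it ran from -0.19 to 0.96 with a median of 0.39, and over the 27 pairs between them from -0.63 to 0.77 with a median of 0.38. The lowest pair within a sub-family was PYL7 and PYL8, and the lowest pair of all was PYL6 and PYL7. These groups share genotypes and treatments, and the values are descriptions.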
